A study of Mus musculus with 6 samples.

Results

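The genes described here are the protein-coding Hox genes of the mouse, chosen by name: every gene whose array symbol is Hoxa, Hoxb, Hoxc or Hoxd followed by a number alone. The annotation of the array gave 38 such genes a probe set of their own, of 23152 genes in all. They were 10 Hoxa, 10 Hoxb, 9 Hoxc and 9 Hoxd genes, read by 227 probe sets, with 2 to 14 per gene. Another 19 probe sets carry a Hox symbol together with a second symbol and entered no gene value. The arrays read cultured neural stem cells of mouse cortex, taken on embryonic day 14.5 and kept as 3 lines numbered 2, 7 and 8. In each line 1 culture received an adenovirus with GFP (Ad-GFP, the control) and another an adenovirus with Cre recombinase (Ad-Cre), which switches on mutant IDH, per the series title IDH1-R132H. Both viruses were used at 100 infectious units per cell (MOI) and washed off after 24 hours, and each culture was read on 1 array, so every group holds 3 arrays. The labels name no culture with Cre and no mutant allele, so effects of Cre and of mutant IDH cannot be told apart. They do not name the strain or the promoter behind the mutant allele. Nor do they say whether the lines came from separate embryos, though 2 genes of the Y chromosome differed between lines, as given below. The p-values measure only the spread between these lines, which may be technical.

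Hox proteins are homeodomain transcription factors that tell cells where they lie along the axis from head to tail. Their genes sit in clusters, and the position of a gene in its cluster follows the place and time of its expression, with low-numbered paralogs turned on first and furthest forward, in the hindbrain, and high-numbered ones in the lumbar and sacral region and the limb ends. The developing cortex lies in front of this domain, where Polycomb proteins keep the clusters repressed. The series asked what mutant IDH does to neural stem cells. The mutant enzyme makes 2-hydroxyglutarate, an inhibitor of enzymes that remove methyl groups from DNA and histones, which makes the Hox clusters, long stretches of DNA under such marks, a place to look.

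DNA around the starts of members is shown first, for the 3 of the 4 members with the highest signals that have a window in the RefSeq promoter table (GRCm38.p6, 250 bases before to 50 after the start). The table had windows for 22 of the 38 members, 24 in all. Each sequence is written 5′ to 3′ along the gene. In the Hoxb1 window (chr11:96365508-96365807, + strand), capitals mark the letters TGATNNAT, a form of the joint site of Hox proteins and their cofactors Pbx. In the Hoxd10 (chr2:74691641-74691940, + strand) and Hoxd12 (chr2:74674763-74675062, + strand) windows, capitals mark CG pairs, the sites of DNA methylation.
Hoxb1: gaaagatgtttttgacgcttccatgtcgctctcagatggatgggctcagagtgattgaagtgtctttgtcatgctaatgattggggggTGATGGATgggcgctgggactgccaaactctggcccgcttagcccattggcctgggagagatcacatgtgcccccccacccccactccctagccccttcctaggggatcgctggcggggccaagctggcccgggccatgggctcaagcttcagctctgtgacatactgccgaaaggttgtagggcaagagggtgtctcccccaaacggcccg
Hoxd10: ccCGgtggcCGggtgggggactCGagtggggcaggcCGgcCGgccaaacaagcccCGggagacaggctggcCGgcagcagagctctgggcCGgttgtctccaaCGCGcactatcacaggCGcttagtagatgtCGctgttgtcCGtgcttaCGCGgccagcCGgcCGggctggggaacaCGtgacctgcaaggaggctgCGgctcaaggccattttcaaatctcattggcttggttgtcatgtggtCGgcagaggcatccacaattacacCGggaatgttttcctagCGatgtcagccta
Hoxd12: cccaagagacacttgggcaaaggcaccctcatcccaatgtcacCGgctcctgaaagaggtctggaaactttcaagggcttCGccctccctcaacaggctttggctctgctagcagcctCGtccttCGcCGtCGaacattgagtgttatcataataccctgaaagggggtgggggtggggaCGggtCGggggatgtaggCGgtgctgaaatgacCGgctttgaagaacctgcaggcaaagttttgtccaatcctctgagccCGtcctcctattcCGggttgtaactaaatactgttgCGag
The Hoxd10 window held 22 CG pairs, the Hoxd12 window 13 and the Hoxb1 window 10. Over the 24 member windows the median was 14.5 CG pairs, from 4 at Hoxa9, Hoxd4 and the upstream start of Hoxd11 to 45 at Hoxa13. The median over all 32851 windows of the table was 7. For olfactory receptor genes, used below as a silent reference, it was 1. Homeobox relatives outside the clusters had a median of 17 (11 windows) and the TALE cofactors described below 19 (5 windows), both above the Hox genes. The median share of G and C was 57.7% in member windows, 52.7% in all windows, 35% for olfactory receptors, 57.0% for the relatives and 59.3% for the cofactors. TGATNNAT, searched on both strands, occurred in 4 of the 24 member windows (16.7%), those of Hoxa2, Hoxb1, Hoxb8 and Hoxd11. It occurred in 8.85% of all windows and in 26.9% of olfactory receptor windows. A match of these letters is a description of the DNA and does not by itself show binding.

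The Hox genes gave dim signals on all 6 arrays. Mean signals of the 38 members lay between 5.36 (Hoxc5) and 7.68 (Hoxb5 and Hoxd10) on the log2 scale, with a median of 6.48, while the median of all genes was 7.80. The files hold no detection calls, so 1075 olfactory receptor genes, which serve smell in the nose, stood in for genes that these cultures should not use. Their median was 5.12 and their 95th percentile 7.19. Of the 38 Hox genes, 4 had a mean above that percentile (10.5%, against 59.2% of all genes), namely Hoxd10, Hoxb5, Hoxb1 and Hoxd12. The 99th percentile of the olfactory receptors was 7.99, and no member passed it. The count was 16 at the 90th percentile (6.66), 4 with vomeronasal receptor genes as the reference (95th percentile 7.26) and 2 with the plain mean of each gene's probe sets. All 38 members therefore had a mean above the silent median, and most lay in the upper part of the silent range. The windows of olfactory receptors differ from those of Hox genes in base content, as given above. The 1075 olfactory receptor genes had 1782 probe sets and the 38 Hox genes 227, so fewer probe sets per gene went into the reference. The part of base content and of probe set number in these counts was not tested. Probes of different genes differ in brightness, so the signals give no order of transcript abundance, and in a mixed culture fewer cells of a type and less RNA per cell cannot be told apart.

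**Figure D1:**
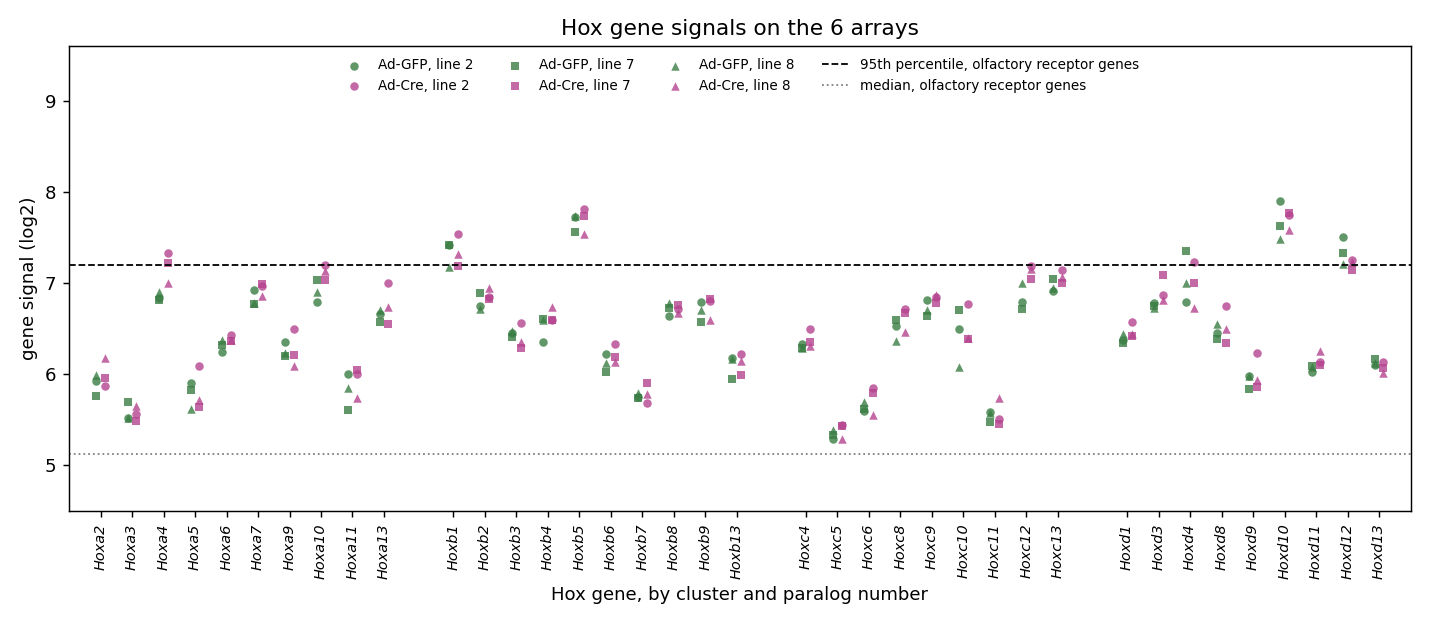
Gene signals (log2, vertical axis) of the 38 Hox genes on each of the 6 arrays, by cluster and paralog number along the horizontal axis. Green is Ad-GFP and purple Ad-Cre, symbols give the line, the dashed line is the 95th percentile of olfactory receptor genes (7.19) and the dotted line their median (5.12). Every point lies above the dotted line, and Hoxb5 and Hoxd10 lie above the dashed line on all 6 arrays.

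The cultures matched the label of neural stem cells by their markers, with 9 of 10 stem cell genes above 7.19. Sox2 averaged 13.20 and Nes 11.97. Above 7.19 were also 11 of 16 forebrain genes and 59.2% of all genes, the share to set beside each list count below. Of the cortical genes, Pax6 averaged 10.02 and Emx2 9.53, while Emx1 averaged 6.80. Idh1 read 12.58 to 12.78 with Ad-GFP and 12.38 to 12.95 with Ad-Cre, and whether its probe sets tell mutant from normal transcripts was not tested. The Ad-Cre array of line 2 stood apart from the rest: the astrocyte gene Gfap read 11.27 there and 7.48 to 8.33 on the other 5 arrays, and the division gene Mki67 10.10 there and 12.43 to 12.84 elsewhere. Called genes among the Hox genes and the lists are therefore also given without line 2. That fit rests on lines 7 and 8 alone, and 1211 of all genes (5.23%) passed an adjusted p of 0.05 in it. With all lines, and without line 7 or line 8, 0 genes did, so these calls depend on leaving out line 2. In limma without line 2, of the stem cell markers Hes1 (0.47, adjusted p = 0.0414) passed higher. Msi1 (-0.55, adjusted p = 0.0213), Prom1 (-1.26, adjusted p = 0.0351) and Hes5 (-0.74, adjusted p = 0.00295) passed lower. Of the forebrain genes Lef1 (1.18, adjusted p = 0.0231) passed higher and Otx2 (-2.11, adjusted p = 0.0251) lower in the same fit. In the labels, the mark in the description field runs the other way round in line 8 than in lines 2 and 7, and the titles and transduction labels, which match each other, were followed.

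With Ad-Cre set against Ad-GFP, none of the 38 Hox genes changed at an adjusted p of 0.05 (limma with the line as a block, Benjamini-Hochberg adjustment over all genes). The share called over all 23152 genes was 0% too, and the smallest adjusted p of any gene was 0.0669. At an unadjusted p under 0.05, 2 members passed, Hoxa4 and Hoxc12, both higher with Ad-Cre. That is 5.26% of the members, against 12.6% of all genes (7.04% higher and 5.58% lower). Which members passed varied with the setting. Hoxa4 and Hoxc12 also passed without line 8 (8.42% of all genes). They did so too without the line block, with a random block, without the trend, and with quantile or cyclic loess scaling (12% to 14.3%). Hoxc12 alone passed with the mean of the probe sets (13.3%) and Hoxa11 alone with the brightest probe set (10.9%). Without line 2 Hoxd4 alone did, with a lower signal (-0.31), against 17.5% of all genes. Without line 7, 0 members and 8.69% of all genes passed, and with the labels of line 8 exchanged 0 and 1.81%. No member differed by more than 0.5 log2 units, a size that 6.68% of all genes passed. The 95% intervals of the members together ran from -0.52 (Hoxd4) to 0.61 (Hoxa4), with standard errors of 0.07 to 0.18, and a p above the threshold does not show that levels were equal.

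The anterior members, paralog groups 1 to 4, pattern the hindbrain and neck. Hoxb1, which gives the fourth hindbrain segment its identity, read 7.41, 7.41 and 7.17 with Ad-GFP and 7.54, 7.18 and 7.31 with Ad-Cre, in lines 2, 7 and 8 in that order, an order kept for every gene below. It was above the olfactory receptor percentile of its own array (7.02 to 7.23) on 5 of 6 arrays, and its groups overlapped (difference 0.01 ± 0.11 SE, adjusted p = 0.969). Hoxa4, which patterns neck vertebrae, read 6.84, 6.82 and 6.90 with Ad-GFP and 7.33, 7.21 and 7.002 with Ad-Cre. All 3 Ad-Cre values of Hoxa4 were above all 3 Ad-GFP values, with line differences of 0.49, 0.40 and 0.10. The difference was 0.33 ± 0.11 (95% interval 0.05 to 0.61, unadjusted p = 0.0309, adjusted p = 0.337). Hoxd3, which patterns the first neck vertebrae, read 6.78, 6.75 and 6.72 with Ad-GFP and 6.87, 7.09 and 6.81 with Ad-Cre. Its groups did not overlap either, by a gap smaller than the spread within the Ad-Cre group, and the difference was 0.17 ± 0.10 (adjusted p = 0.517). Hoxd4, a hindbrain and neck gene, read 6.79, 7.35 and 6.99 with Ad-GFP and 7.23, 6.9999 and 6.72 with Ad-Cre. Line 2 was higher with Ad-Cre and lines 7 and 8 lower (-0.06 ± 0.18, adjusted p = 0.909), and without line 2 the difference was -0.31 (adjusted p = 0.221). Hoxd4 has 2 probe sets of its own and shares 9 others with Hoxd3. Hoxb2, which acts in the hindbrain, read 6.75, 6.89 and 6.71 with Ad-GFP and 6.84, 6.82 and 6.94 with Ad-Cre, with overlapping groups. Hoxa2, which directs the second branchial arch, read 5.92, 5.75 and 5.99 with Ad-GFP and 5.86, 5.96 and 6.17 with Ad-Cre, all within the silent range. Hoxb4, of the caudal hindbrain and blood stem cells, read 6.35, 6.60 and 6.59 with Ad-GFP and 6.59, 6.59 and 6.74 with Ad-Cre, lowest on the Ad-GFP array of line 2.

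The central members, paralog groups 5 to 8, pattern the trunk. Hoxb5, of the caudal hindbrain and the nerve cells of the gut, read 7.72, 7.56 and 7.73 with Ad-GFP and 7.81, 7.74 and 7.54 with Ad-Cre, above the percentile of its array on all 6 and with overlapping groups (0.02 ± 0.11, adjusted p = 0.941). Its mean signal was the highest after that of Hoxd10. Hoxa7 read 6.92, 6.77 and 6.77 with Ad-GFP and 6.97, 6.98 and 6.85 with Ad-Cre, and the Ad-GFP array of line 2 lay inside the range of the Ad-Cre arrays. Hoxc8, which sets motor neuron identity at limb levels, read 6.53, 6.59 and 6.36 with Ad-GFP and 6.71, 6.67 and 6.46 with Ad-Cre. Line 8 was the lowest line of Hoxc8 with both viruses. Hoxa5, a gene of the lung and breathing muscles, read 5.90, 5.83 and 5.62 with Ad-GFP and 6.09, 5.63 and 5.72 with Ad-Cre, highest on the Ad-Cre array of line 2. Hoxb6 read 6.22, 6.02 and 6.12 with Ad-GFP and 6.33, 6.18 and 6.13 with Ad-Cre, and in it too the Ad-Cre array of line 2 was the highest.

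The posterior members, paralog groups 9 to 13, pattern the lumbar and tail regions and the limb ends. Hoxd10, which acts in lumbar motor neurons, had the highest mean signal of the members and read 7.90, 7.62 and 7.48 with Ad-GFP and 7.75, 7.77 and 7.58 with Ad-Cre. All 6 values were above the percentile of their arrays, the highest was an Ad-GFP array, and the groups overlapped (0.03 ± 0.10, adjusted p = 0.914). Hoxd12, a gene of the digits, read 7.503, 7.33 and 7.21 with Ad-GFP and 7.25, 7.15 and 7.23 with Ad-Cre, above the percentile of its array on 4. Its difference of -0.14 ± 0.10 was the lowest of the members (adjusted p = 0.600). Hoxc12 read 6.79, 6.71 and 6.999 with Ad-GFP and 7.19, 7.04 and 7.16 with Ad-Cre. All Ad-Cre values of Hoxc12 were above all Ad-GFP values, with line differences of 0.40, 0.33 and 0.16 (0.30 ± 0.09, 95% interval 0.06 to 0.53, unadjusted p = 0.0247, adjusted p = 0.314). Hoxa10, which patterns the uterus and lumbar skeleton, read 6.79, 7.03 and 6.90 with Ad-GFP and 7.20, 7.03 and 7.13 with Ad-Cre (0.21 ± 0.11, adjusted p = 0.497), with its highest value on the Ad-Cre array of line 2. Hoxc13, a gene of hair and nails, read 6.91, 7.04 and 6.95 with Ad-GFP and 7.14, 6.996 and 7.07 with Ad-Cre, and Hoxa13, of the digits and hind gut, 6.65, 6.57 and 6.70 with Ad-GFP and 6.998, 6.55 and 6.74 with Ad-Cre. In both, that same array was again the highest. Hoxc10, of lumbar motor neurons, read 6.496, 6.70 and 6.08 with Ad-GFP and 6.77, 6.39 and 6.39 with Ad-Cre and spread most among the members between lines. Hoxd11, of the forearm and kidney, read 6.02, 6.09 and 6.07 with Ad-GFP and 6.13, 6.10 and 6.25 with Ad-Cre, with groups that did not overlap although all values lay between 6.02 and 6.25. Its difference was 0.10 ± 0.08 (adjusted p = 0.645).

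Among the paralogs of group 9, Hoxc9, which represses limb motor neuron fates in the chest region, read 6.81, 6.63 and 6.70 with Ad-GFP and 6.85, 6.78 and 6.86 with Ad-Cre, with overlapping groups. Hoxa9, known from blood progenitors and leukaemia, read 6.35, 6.19 and 6.22 with Ad-GFP and 6.49, 6.21 and 6.09 with Ad-Cre. Hoxd9 read 5.98, 5.83 and 5.98 with Ad-GFP and 6.22, 5.86 and 5.93 with Ad-Cre. Both were highest on the Ad-Cre array of line 2. Hoxb13, of the tail and prostate, read 6.18, 5.94 and 6.17 with Ad-GFP and 6.22, 5.99 and 6.15 with Ad-Cre. The 14 members not given in full had mean signals from 5.36 (Hoxc5) to 6.72 (Hoxb8), differences from -0.06 (Hoxd13) to 0.11 (Hoxa11) and adjusted p-values from 0.688 (Hoxd1) to 0.997 (Hoxb8).

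Small differences leaned upward. The mean difference was above 0 in 32 of the 38 members (84.2%), against 56.4% of all genes, 64.1% of 8661 other genes within the same range of signals and 58.4% of olfactory receptors. Its median was 0.08 over the members, 0.03 over all genes and 0.05 over the genes of like signal. The members' median was 0.12 within line 2, against 0.04 for line 7 and 0.03 for line 8. The Ad-Cre array of line 2 gave the highest of the 6 values in 21 members (55.3%), against 32.5% of all genes and 34.9% of those of like signal. Without line 2, 25 members were above 0 and their median was 0.04. With cyclic loess scaling 24 were above 0, and after each line's olfactory receptor median was taken off (a setting chosen after seeing the data) 27 were. Within lines, 10 members were higher with Ad-Cre in all 3 (26.3%, against 22.1% of all genes) and 0 were lower in all 3 (16.2% of all genes). Groups did not overlap in 4 members, Hoxa4, Hoxc12, Hoxd3 and Hoxd11, all higher with Ad-Cre (10.5%, against 12% of all genes). In 0 members did all Ad-Cre values lie below all Ad-GFP values (8.89% of all genes). By cluster the median difference was 0.11 for Hoxa, 0.03 for Hoxb, 0.10 for Hoxc and 0.07 for Hoxd.

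**Figure D2:**
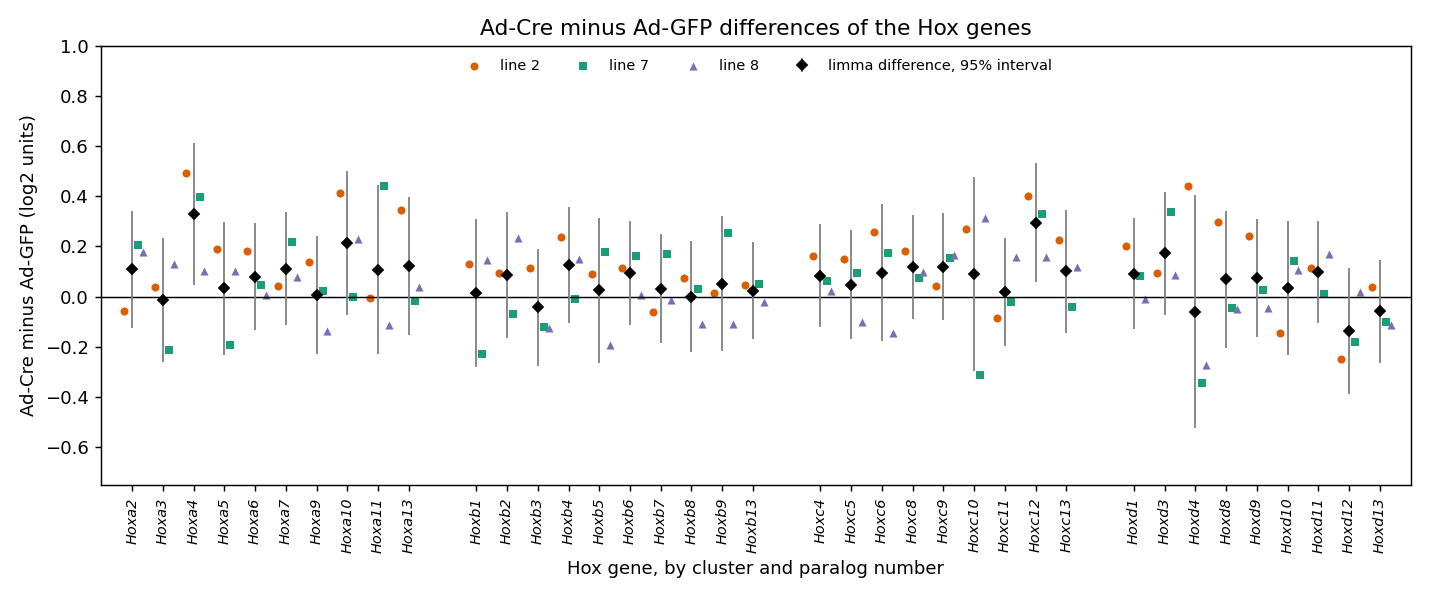
Ad-Cre minus Ad-GFP difference (log2 units, vertical axis) of each Hox gene within lines 2, 7 and 8 (coloured symbols) and as fitted by limma over the 3 lines (black diamonds, bars for the 95% interval). The intervals of Hoxa4 (0.05 to 0.61) and Hoxc12 (0.06 to 0.53) lie above 0, and those of all other members include it.

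No difference in Hox signal between the lines passed the test. None of the 38 members passed an adjusted p of 0.05 in limma's moderated F test for differences between lines (smallest adjusted p = 0.739). Of all genes 0.00864% passed, namely Kdm5d and Uty (adjusted p = 0.0237 for each), both on the Y chromosome. Whether the lines differ in sex was not tested. At an unadjusted p under 0.05, 0 members and 4.92% of all genes passed. The means of the 3 lines lay 0.02 (Hoxc13) to 0.40 (Hoxc10) apart within a member, with a median of 0.16 against 0.18 over all genes. A distance over 1 log2 unit occurred in 0 members and in 1.84% of all genes.

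By cluster, the median signal was 6.30 for Hoxa, 6.64 for Hoxb, 6.47 for Hoxc and 6.49 for Hoxd. Hoxb and Hoxd each held 2 of the 4 members above 7.19, and Hoxa and Hoxc held 0. By position, the median was 6.58 over the 11 anterior members, 6.35 over the 11 central ones and 6.59 over the 16 posterior ones. Signals within each cluster ran wider than these medians lie apart, the narrowest range being that of Hoxa, from 5.57 to 7.02. Members of a cluster are neighbours in the genome, so they are not independent of each other.

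Single probe sets of a gene differed more than the genes did. Of the 227 Hox probe sets, 56 (24.7%) were above the 95th percentile of olfactory receptor probe sets (7.56). The share was 62.1% of all probe sets and 5.05% of olfactory receptor ones, and the median was 6.44 for Hox and 5.06 for olfactory receptor probe sets. The 56 Hox probe sets belonged to 29 genes. In Hoxb5 they were 3 of 6 probe sets, in Hoxd10 2 of 4 and in Hoxd4 1 of 2, and in every other member a smaller share. The brightest belonged to Hoxd3 and averaged 10.73, while the median of the 11 Hoxd3 probe sets was 6.92 and the dimmest averaged 4.25. In Hoxc6 1 of 8 averaged 10.60 and the next brightest 6.01. In Hoxb6 1 of 6 averaged 10.25. Other members held several above 7.56: Hoxa7 6 of 14, the brightest at 10.47, and Hoxa3 4 of 13, the brightest at 10.18. The brightest of the 1782 olfactory receptor probe sets averaged 10.95, so a bright probe set also occurred in the silent reference, where a smaller share passed the mark.

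No Hox probe set changed with Ad-Cre at an adjusted p of 0.05 (limma over all 269751 probe sets, of which 0% passed). At an unadjusted p under 0.05, 3 of 227 passed (1.32%, against 10.7% of all probe sets), all dim and all higher with Ad-Cre in every line. The Hoxb7 probe set read 4.97, 5.23 and 5.25 with Ad-GFP and 6.21, 5.69 and 5.99 with Ad-Cre (difference 0.81 ± 0.24, unadjusted p = 0.0161, adjusted p = 0.353). The Hoxc6 probe set read 5.42, 4.84 and 5.41 with Ad-GFP and 6.03, 6.40 and 5.96 with Ad-Cre (0.91 ± 0.28, adjusted p = 0.374). The Hoxa6 probe set read 5.26, 5.21 and 5.17 with Ad-GFP and 5.93, 5.50 and 5.76 with Ad-Cre (0.52 ± 0.20, adjusted p = 0.457). In all 3 the groups did not overlap, which adds nothing to the p-values by which these probe sets were picked. The share of all probe sets without overlap was not counted. Every value of the 3 lay below the mark of 7.56. Without line 2, 0 Hox probe sets passed an adjusted p of 0.05.

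**Figure D3:**
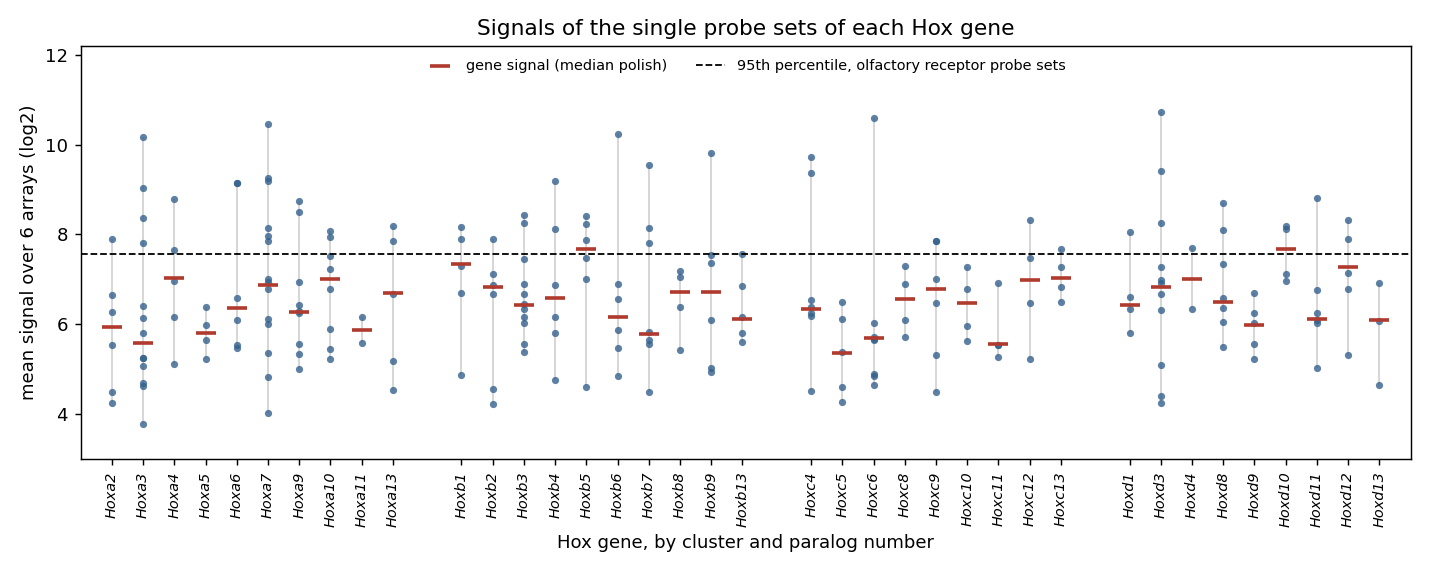
Mean signal over the 6 arrays (log2, vertical axis) of each of the 227 Hox probe sets (points) by gene (horizontal axis), with the gene signal as a red bar and the 95th percentile of olfactory receptor probe sets (7.56) as a dashed line. Probe sets of a gene spread widely, from 4.25 to 10.73 in Hoxd3, while nearly all gene signals lie below the dashed line.

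Hox proteins bind DNA together with homeodomain cofactors of the TALE class (Pbx, Meis and Pknox), and these were bright. All 8 measured were above 7.19, with a median of 9.50. Meis2 read 12.23, 12.24 and 12.72 with Ad-GFP and 12.44, 12.49 and 12.36 with Ad-Cre, high in every culture. Meis1 read 11.08, 11.39 and 11.24 with Ad-GFP and 10.71, 10.85 and 10.88 with Ad-Cre, each Ad-Cre value below each Ad-GFP value (-0.42 ± 0.09, adjusted p = 0.187). Pknox2 differed by -0.35 ± 0.10 (adjusted p = 0.302). None of the 8 passed an adjusted p of 0.05. Without line 2, where 5.23% of all genes passed, Meis1 did (-0.44 ± 0.08, adjusted p = 0.0273).

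Genes whose products repress or open the Hox clusters were also bright. Of 24 Polycomb genes 23 were above 7.19 (median 10.004), the exception being Bmi1 at 6.69, and all 14 Trithorax and H3K27 demethylase genes were (median 10.87). The 7 genes of DNA methylation, among them the Tet enzymes that 2-hydroxyglutarate can inhibit, were above it as well. None of these genes passed an adjusted p of 0.05. Pcgf2, a subunit of Polycomb complex PRC1, read 7.87, 7.82 and 7.92 with Ad-GFP and 7.09, 7.07 and 7.07 with Ad-Cre, each Ad-Cre value below each Ad-GFP value (-0.79 ± 0.09, adjusted p = 0.0919). Phf19, a partner of PRC2, differed by -0.68 ± 0.13 (adjusted p = 0.162) and Tet2 by -0.34 ± 0.09 (adjusted p = 0.250). Without line 2, Pcgf2 (-0.80, adjusted p = 0.0125), Jarid2 (-0.40, adjusted p = 0.0289) and Tet2 (-0.40, adjusted p = 0.0293) passed, and 0 Hox genes did.

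Of 21 genes that turn on or limit Hox expression in the embryo, mostly of the retinoic acid pathway, 12 were above 7.19 and 0 passed an adjusted p of 0.05. The receptor Rara read 8.26, 8.27 and 8.33 with Ad-GFP and 8.93, 8.66 and 8.76 with Ad-Cre, with Ad-Cre higher in every line (0.50 ± 0.11, adjusted p = 0.190). Aldh1a1, which makes retinoic acid, differed by 0.61 ± 0.16 (adjusted p = 0.268). The Cdx genes, direct inducers of Hox genes, averaged 6.98 (Cdx1), 7.08 (Cdx2) and 6.44 (Cdx4), within the silent range. Among 15 homeobox relatives outside the clusters, Cdx included, 4 were above 7.19 (Gsx1, Pdx1, En2 and Gbx2), and the median was 6.91.

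Of 18 other genes of midbrain, hindbrain and spinal cord identity 8 were above 7.19, against 59.2% of all genes. The list median was 7.06, so these genes were mostly dim too, though not all of them. Egr2, a regulator of Hox genes in the hindbrain, read 9.49, 9.12 and 8.85 with Ad-GFP and 9.53, 9.73 and 9.51 with Ad-Cre. En2, of the midbrain border, read 8.47, 8.80 and 10.66 with Ad-GFP and 9.09, 7.16 and 9.24 with Ad-Cre. Irx5, another homeobox gene, averaged 9.52. None of these 18 genes passed an adjusted p of 0.05. Without line 2, En2 (-1.53, adjusted p = 0.00169) and Egr2 (0.63, adjusted p = 0.0160) did.

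**Figure D4:**
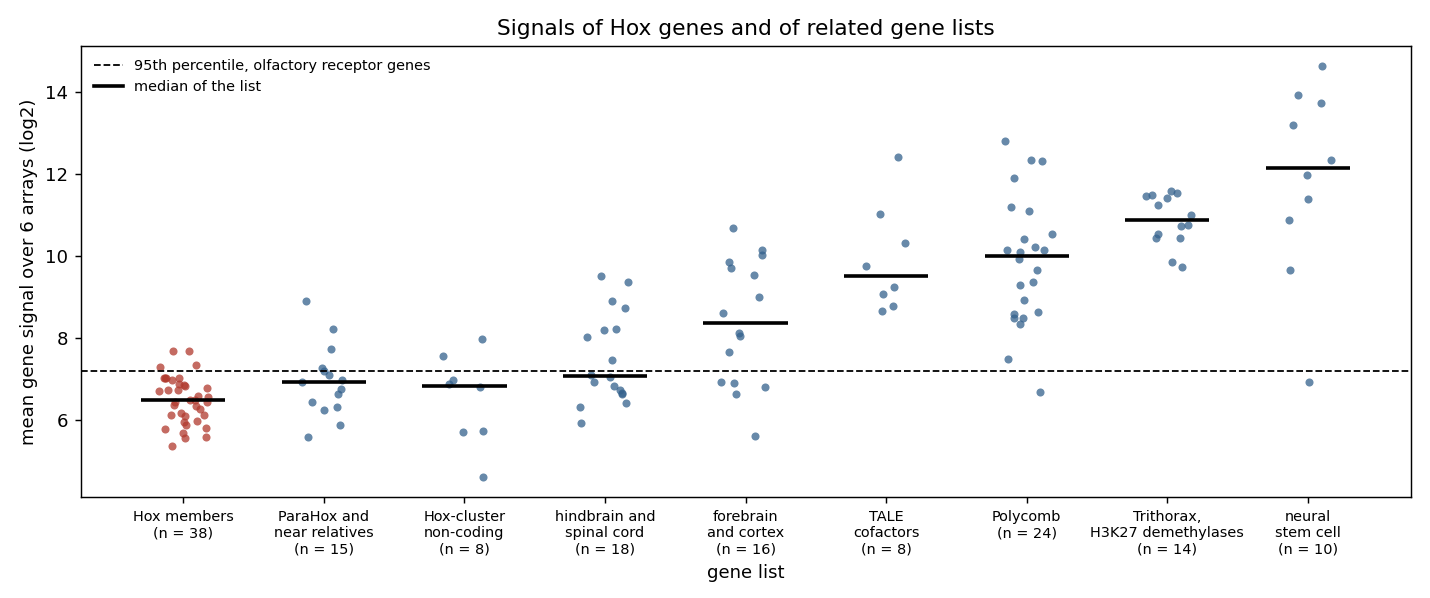
Mean signal over the 6 arrays (log2, vertical axis) of the Hox genes (red) and of genes in 8 lists (blue), with list medians as black bars and the 95th percentile of olfactory receptor genes (7.19) as a dashed line. Of 38 Hox genes 4 lie above the dashed line, while all 8 TALE cofactors and 23 of 24 Polycomb genes do.

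Transcripts made from within the clusters other than Hox messages had 8 measured symbols, with a median of 6.82. Hoxd3os1, on the strand opposite Hoxd3, averaged 7.96 and Hoxaas3 7.56, and the other 6, Hotair among them at 6.79, were below 7.19. The 4 microRNA symbols among the 8 belong to microRNAs known to act on Hox messages or to lie inside the clusters. Their mature sequences (RefSeq, GRCm38.p6) are shown with the seed, bases 2 to 8, in capitals, since each seed differs.
miR-10b-5p: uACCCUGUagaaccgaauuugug
miR-196a-5p: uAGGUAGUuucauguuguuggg
miR-615-3p: uCCGAGCCugggucucccucuu
The probe sets carry the symbols of the precursor genes, so the signals do not measure mature microRNA. Mir10b, beside Hoxd4, read 4.57, 4.65 and 4.36 with Ad-GFP and 4.79, 4.71 and 4.56 with Ad-Cre, below the silent median on every array. Mir196a-1 and Mir196a-2, both sources of miR-196a-5p, averaged 5.72 and 5.70, and Mir615 averaged 6.97. None of the 8 symbols passed an adjusted p of 0.05, and the smallest was 0.446.

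A list of markers of another cell type differed between the groups in its summed signal, while its members went both ways. The summed linear signal of 14 fibroblast, meningeal and mesenchymal markers was 5876 to 8621 with Ad-GFP and 3120 to 4069 with Ad-Cre, without overlap, with the lowest differences in Pdgfra (-2.72 ± 0.34, adjusted p = 0.0939) and Acta2 (-2.35 ± 0.48, adjusted p = 0.176). At an unadjusted p under 0.05, 4 of the 14 were lower (with Pdgfrb and Prrx1) and 2 higher (Foxc1 and Col1a1), none at an adjusted p of 0.05, and the median difference over the 14 was 0.10. Without line 2, Pdgfra (-2.24, adjusted p = 0.00142) and Pdgfrb (-0.67, adjusted p = 0.0202) passed lower and Foxc1 (1.01, adjusted p = 0.00507) higher, as did Emcn (0.75, adjusted p = 0.0129) of the endothelial and Cd68 (0.59, adjusted p = 0.0278) of the microglia and blood markers. Of the 14, 8 were above 7.19, Col1a1 (8.37) and Col3a1 (7.55) among them, while Col1a2, Lum and Dcn, also typical of fibroblasts, averaged 7.17, 5.29 and 6.27, below 7.19. Endothelial markers were above it in 1 of 6 (Kdr) and microglia and blood markers in 2 of 5 (Cx3cr1 and Cd68), with Ptprc at 5.23. Whether the shares of these cells changed was not tested, nor was their part in the Hox differences.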

How the data were processed

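Total RNA of 6 cultures was read on 6 Affymetrix arrays. For each probe set the authors deposited a log2 signal, and the submitters' processing notes name RMA and Affymetrix Expression Console. Their versions and settings, and a genome build, are not given in the labels or files used. RMA sets all arrays to 1 distribution, so a shift shared by most genes would not show.

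Of 269751 probe sets, 233753 carry 1 gene symbol in the platform annotation, 5106 several and 30892 none. Only the first were used, combined into 23152 genes by median polish (at most 20 iterations). Differences were tested with limma 3.58.1 in R 4.3.3 (line as a block, virus as effect, variance trend, two-sided), and lines with its moderated F test, adjusted by Benjamini-Hochberg across all genes (threshold 0.05). The steps were tested on simulated data. The number of arrays limits the precision. Lines pair the arrays, per the series design, and deviations of a line's 2 arrays correlated at 0.226, 0.163 and 0.333 (lines 2, 7 and 8), against -0.227 to 0.00288 across lines. Deviations were taken from the mean of each virus group, so positive values within lines bring negative ones across lines. The contrast is therefore not separate evidence of the pairing.

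Full values are given for members among the 12 with the highest signal, the 10 with the lowest p for virus or the 10 with the lowest p for lines. From each list up to 4 genes with the lowest p could be named, and genes named beyond these were chosen after their values were seen. Members and lists were chosen with earlier results of these data known. Alternatives changed the block, gene summary, low-value filter, scaling, variance trend, line 8 labels, silent reference and lines included.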

Additional observations from a re-analysis of the deposited data

How the results depend on the processing

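The count of Hox genes called for virus or line, and of Hox probe sets called for virus, was 0 in every setting run. Without the replicate block, which ignores the pairing of arrays by line, 82 of all genes were called for virus and 0 Hox genes. The count over all genes was 241 with the line as a random block, 73 with the mean of the probe sets, and 0 to 1211 when a line was left out (1211 without line 2, 0 without line 7 or line 8). Genes called between lines numbered 1 with the brightest probe set and 0 to 37 when a line was left out (37 without line 2). The filter on low values kept 4 Hox genes, with a median difference of 0.019 and 3 above 0. Hox genes above the silent reference numbered 16 at its 90th percentile, 0 at its 99th and 2 with the mean of the probe sets.

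Of the values of named Hox genes under the alternatives, 234 kept their sign, and 34, none of them called, changed it. These were, with the mean of the probe sets, Hoxb1 -0.018 and Hoxd12 0.023. With the brightest probe set they were Hoxa2 -0.0035, Hoxa9 -0.16, Hoxc8 -0.098 and Hoxd10 -0.029. Cyclic loess gave Hoxa5 -0.0062, Hoxa9 -0.036, Hoxb1 -0.031, Hoxb5 -0.016, Hoxb13 -0.017 and Hoxd10 -0.0077. Exchanged labels of line 8 gave Hoxa2 -0.0102, Hoxa5 -0.035, Hoxb1 -0.082, Hoxb2 -0.069, Hoxc10 -0.12, Hoxd4 0.12, Hoxd10 -0.036 and Hoxd11 -0.016. With 1 line left out, values ran for Hoxa5 from -0.047 to 0.15, Hoxa9 from -0.059 to 0.079, Hoxb1 from -0.051 to 0.14, Hoxb5 from -0.052 to 0.13, Hoxc10 from -0.022 to 0.29, Hoxd4 from -0.31 to 0.084, Hoxd9 from -0.011 to 0.13 and Hoxd10 from -0.021 to 0.12. The causes were not tested. Signals near the silent reference limit what a difference in a Hox gene can show.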

Other observations

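A probe set annotated to both Hoxa11 and its antisense gene Hoxa11as, which entered no gene value, ranged over 3.06 log2 units, picked out after the values were seen. It read 7.62, 4.62 and 5.15 with Ad-GFP and 6.27, 7.68 and 6.43 with Ad-Cre in lines 2, 7 and 8. Its sign differed between lines, with -1.35 in line 2 and 3.06 in line 7 (limma, 0.997 ± 0.81, adjusted p = 0.714). Pax3, a gene of the dorsal neural tube and neural crest, read 9.45 on the Ad-GFP array of line 7 and 6.25 to 6.53 on the other 5 arrays.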
